A study of Mus musculus with 4 samples.

Results

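The 10 genes described here encode proteins of the contacts and the surface of endothelial cells, the cells that line blood vessels: Cdh5, Ptprb, Cldn5, Esam, Jam2, Ocln, Tjp1, Pecam1, Cd34 and Emcn. They form a list of names with no threshold on a measured value, drawn up with earlier results of these data known, and are 10 of the 20640 genes in the deposited tables; all 10 passed the minimum of 10 counts in each class of endothelial cells below. Lung cells had been sorted by DAPI exclusion and by CD45, the leukocyte surface marker, and sequenced with a droplet 3′ kit in which unique molecular identifiers (UMIs) count captured RNA molecules. Female C57BL/6 mice, 8 weeks old at the start, carried lung tumours of HKP1, a mouse lung adenocarcinoma line given by tail vein. The 0 Gy group was mock-irradiated, the 4 Gy group received radiation on 3 consecutive days from day 10 to day 12, and lungs were taken 24 to 48 hours after the last session; neither group was free of tumour. There were 4 mice per treatment but 1 CD45-negative library per dose, and no map from cells to mice, so the design allows no test between doses. Every interval below is a 95% interval for counting error only, and a difference between doses cannot be told apart from a difference between these 2 libraries.

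Endothelial cells are held together by adherens junctions, built on VE-cadherin (Cdh5), and by tight junctions, whose claudins seal the gap between neighbours and are tied to the cytoskeleton by scaffold proteins such as ZO-1 (Tjp1). Immunoglobulin-like proteins (Esam, Jam2, Pecam1) sit in the same contacts and take part in leukocyte passage, and the sialomucins Cd34 and endomucin (Emcn) coat the surface facing the blood. In the lung, the alveolar capillary bed holds 2 kinds of endothelial cell: aerocytes, large flat cells at the gas exchange surface, and general capillary cells, which can divide and repair the bed.

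After removal of predicted doublets the CD45-negative libraries held 5693 cells at 0 Gy and 4164 at 4 Gy. Cells were gated as endothelial by 19 other endothelial genes such as Egfl7, Ramp2 and Calcrl, so that none of the 10 genes took part in the gate. The gate took 5093 cells at 0 Gy (89.5% of the library) and 3838 at 4 Gy (92.2%), with median depths of 1871 and 2045 UMIs. By marker genes they were divided into aerocyte-like cells (436 at 0 Gy and 302 at 4 Gy), general capillary-like cells with no UMI of Lyve1 (2094 and 696), general capillary-like cells with at least 1 UMI of Lyve1 (2252 and 2504), artery-like cells (63 and 71) and vein-like cells (96 and 78), called aerocytes, capillary cells, arterial cells and venous cells from here on. Lymphatic endothelial cells numbered 5 and 4 and were not analysed further. Another 147 and 183 endothelial cells fell in no class and were counted only among all endothelial cells. Lyve1 is a hyaluronan receptor whose own level was higher at 4 Gy (701 counts per 1000000 UMIs, CPM, at 0 Gy and 1760 at 4 Gy over all endothelial cells), so the split by Lyve1 does not hold the same cells at the 2 doses. The general capillary list was lower at 4 Gy, at 9341 and 7432 CPM over all endothelial cells. The aerocyte list was at 18629 and 15863 CPM in aerocytes. The gates on these lists may therefore not take the same cells at the 2 doses either. The gates are cuts in a range: 850 of the capillary cells at 0 Gy and 441 at 4 Gy had exactly 1 Lyve1 UMI. Few barcodes were shared between libraries (12 between the CD45-negative pair).

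The labels of the classes and of the 10 genes were checked against cells that should lack them. In B cells of the CD45-positive sort (1626 at 0 Gy and 2452 at 4 Gy; median 2708 and 2185 UMIs), 9 of the 10 genes were at or near 0, between 0 and 2.13 CPM. These B cells come from other libraries than the endothelial cells. Pecam1, which lymphocytes also carry, was the exception, with 128 CPM in B cells at 0 Gy and 155 CPM at 4 Gy. With each cell thinned to 1000 UMIs, Emcn was seen in no B cell at either dose, with exact upper limits of 0.229% and 0.151% of cells, against 24.3% of endothelial cells at 0 Gy and 16.8% at 4 Gy. Other cells of the CD45-negative libraries lay further from 0. Epithelial cells (163 at 0 Gy and 105 at 4 Gy; median 7246 and 8529 UMIs) held 155 and 205 CPM of Cldn5, 98.0 and 130 CPM of Ptprb, 72.5 and 64.4 CPM of Cdh5, and 16.1 and 11.8 CPM of Emcn. Leukocytes in these libraries held 103 and 147 CPM of Cldn5, and 36 pericyte and smooth muscle cells at 0 Gy held 397 CPM of Cldn5 and 231 CPM of Ptprb. After thinning, a Cdh5 UMI was seen in 6.45% and 6.12% of epithelial cells and an Emcn UMI in 0.645% at 0 Gy and in none of 98 at 4 Gy (exact upper limit 3.69%). Levels in endothelial cells are read beside these values.

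Ocln, a tight junction protein best known from epithelium, was at 31.5 and 52.6 CPM in epithelial cells of the CD45-negative sort and at 58.6 and 57.4 CPM in endothelial cells; fibroblasts held 0 counts at 0 Gy and 1 count at 4 Gy. Cd34 also reached 158 and 218 CPM in the fibroblasts, where it is a known marker.

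Across all endothelial cells the junction genes differed little between the libraries, with Emcn as the exception. Emcn was at 320 CPM at 0 Gy and 200 CPM at 4 Gy, a ratio of 0.625 (0.590 to 0.661), and was the only gene of the 10 past 1.5-fold, the size used as a call throughout. That is 0 of 10 called higher and 1 of 10 called lower, beside 11.9% and 7.36% of the 16550 genes with at least 10 counts, and beside 6.53% and 3.45% of the 12709 genes with at least 50. Cd34 lay on the other side of 1, at 280 CPM at 0 Gy and 335 CPM at 4 Gy (1.19, interval 1.14 to 1.26). The median log2 ratio of the 10 genes was -0.12, against 0.05 over all genes tested.

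Of the adherens junction genes, Cdh5 (chromosome 8, 104101625 to 104144511, plus strand, GRCm38, the build also called mm10), the cadherin that joins endothelial cells, was at 1906 CPM at 0 Gy and 1641 CPM at 4 Gy, a ratio of 0.861 (0.843 to 0.879). The share of thinned cells with a Cdh5 UMI was 83.4% (82.3 to 84.4) at 0 Gy and 76.8% (75.4 to 78.2) at 4 Gy; unthinned it was 93.8% and 92.6%. Ptprb (chromosome 10, 116275523 to 116389535, plus strand), the phosphatase VE-PTP that binds VE-cadherin and Tie2, was at 1962 CPM and 2017 CPM (1.03, 1.01 to 1.05). So Cdh5 was lower at 4 Gy and its phosphatase was nearly level. An overlapping gene on the same strand, Gm47625, held 86 and 74 counts against 20840 and 19127 for Ptprb.

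Of the tight junction genes, Cldn5 (chromosome 16, 18776847 to 18778262, plus strand), the main claudin of endothelium, was at 5356 CPM at 0 Gy and 4788 CPM at 4 Gy, a ratio of 0.894 (0.883 to 0.905). Tjp1, the scaffold ZO-1, was at 380 CPM and 324 CPM (0.852, 0.813 to 0.893). Both were lower by less than 1.5-fold. The scarcer tight junction genes could not be set apart from no difference: Jam2 was at 86.6 CPM and 82.2 CPM (0.949, 0.862 to 1.05), and Ocln at 58.6 CPM and 57.4 CPM (0.979, 0.871 to 1.10). Jam2 rested on 920 and 780 counts and Ocln on 622 and 544.

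Of the contact proteins of the immunoglobulin family, Esam and Pecam1 were also slightly lower, while the interval of Jam2, given above, held 1. Esam, an adhesion molecule of endothelial tight junctions, was at 1143 CPM at 0 Gy and 1012 CPM at 4 Gy (0.885, 0.861 to 0.909). Pecam1, which acts in junctions and in leukocyte passage, was at 1331 CPM and 1254 CPM (0.942, 0.919 to 0.965). The 19 endothelial markers of the gate, none of them among the 10 genes, did not share a direction: together they were at 26840 CPM at 0 Gy and 25472 CPM at 4 Gy, with 11 ratios below 1 and 8 above, from 0.618 for Gpihbp1 to 2.81 for Mmrn2 and a median ratio of 0.977. Ramp2 had a ratio of 0.903 (0.892 to 0.914), and Eng of 1.35 (1.32 to 1.38).

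The endothelial classes differed among themselves in these genes. At 0 Gy aerocytes held the highest level of Cdh5 (2359 CPM, against 1089 in venous cells), of Cldn5 (7554 CPM against 2759), of Esam (1595 CPM against 697 in arterial cells), of Cd34 (988 CPM against 103 in arterial cells) and of Emcn (455 CPM against 227 in arterial cells). For these 5 genes the interval of the aerocytes lay above that of every other class in both libraries. Pecam1 was highest in aerocytes as well (1673 CPM), but at 0 Gy its interval overlapped that of arterial cells (1524 CPM). Ocln was highest in aerocytes at both doses (80.5 and 89.1 CPM), with intervals that overlapped those of the next class.

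Ptprb and Jam2 had the opposite order. Ptprb was between 2028 and 2377 CPM at 0 Gy in the other classes and at 62.6 CPM (50.4 to 76.8) in aerocytes, which is below its level in epithelial cells of the same library (98.0 CPM) and near that in fibroblasts (71.0 CPM). The aerocyte level was thus not above the level in cells that should lack Ptprb. Jam2, a junctional adhesion molecule, was at 19.9 CPM in aerocytes, at 81.4 and 95.2 CPM in the capillary sets, at 204 CPM in venous cells and at 238 CPM in arterial cells, beside 5.37 CPM in epithelial cells and 22.0 CPM in fibroblasts; arterial and venous cells overlapped. Tjp1 spread least of the genes at 4 Gy apart from Pecam1, from 224 CPM in venous cells to 364 CPM in capillary cells without Lyve1, a 1.62-fold span. Cdh5 and Cldn5 were lowest in the cells of larger vessels at both doses.

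**Figure D1:**
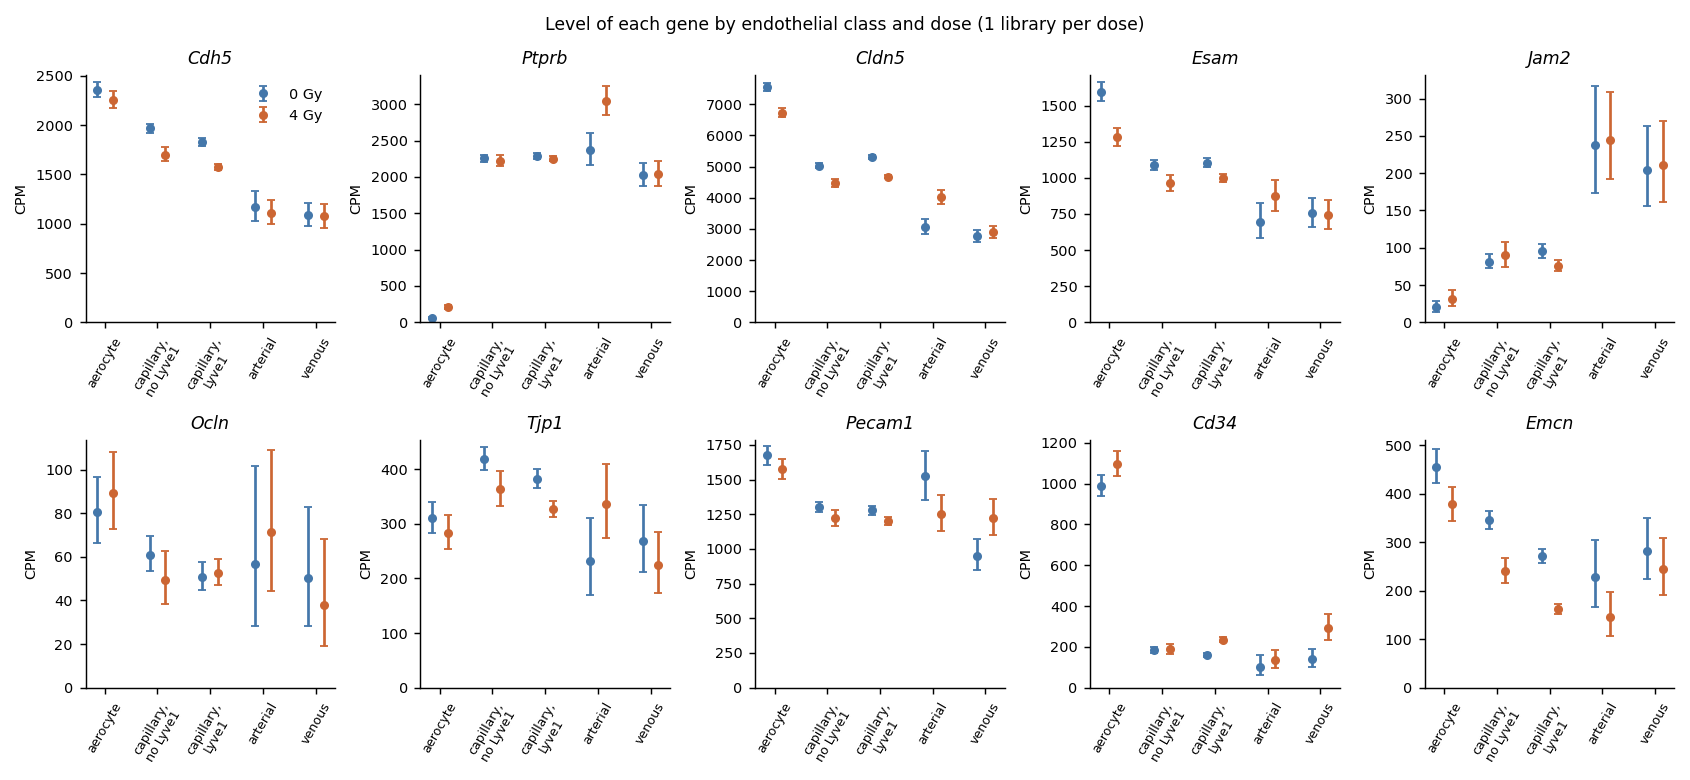
Level of each gene in CPM (vertical axes, each from 0) in 5 endothelial classes at 0 Gy (blue) and 4 Gy (orange); points are sums over all cells of a class in 1 library and bars are exact 95% Poisson intervals for counting error. Aerocytes stand highest for Cdh5, Cldn5, Esam, Cd34 and Emcn and lowest for Ptprb and Jam2.

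Emcn, a sialomucin of capillary and venous endothelium (chromosome 3, 137341067 to 137432185, plus strand), was lower at 4 Gy in all 5 classes. In capillary cells with Lyve1 it was at 270 CPM at 0 Gy and 163 CPM at 4 Gy (0.601, 0.553 to 0.654), the only gene of the 10 called there, where 7.52% of all genes were called lower and 13.3% higher (3.25% and 7.01% of those with at least 50 counts). In capillary cells without Lyve1 it was at 345 CPM and 240 CPM (0.695, 0.613 to 0.786), which did not reach the call. Clusters low in Lyve1, but not free of it, gave 0.821. In the gated cells without Lyve1 0 of 10 genes were called, beside 11.1% higher and 9.61% lower over all genes (5.68% and 4.01% of those with at least 50 counts). Aerocytes held 455 CPM and 378 CPM (0.830, 0.734 to 0.937). In arterial cells Emcn was at 227 CPM and 146 CPM (0.643, 0.413 to 1.002), a call that rested on 44 and 43 counts. In venous cells it was at 282 CPM and 245 CPM (0.871, 0.626 to 1.21), so that the arterial and venous cells alone did not settle a direction.

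Cd34, the other sialomucin and a marker of capillaries and of blood progenitors (chromosome 1, 194938819 to 194961279, plus strand), was level or higher at 4 Gy. It was at 159 CPM at 0 Gy and 236 CPM at 4 Gy in capillary cells with Lyve1 (1.48, 1.35 to 1.62), just short of the call, and at 183 CPM and 188 CPM in those without (1.02, 0.883 to 1.19). Venous cells held 141 CPM and 290 CPM (2.06, 1.41 to 3.06; 3.33 with a stricter gate), the only gene called there, where 18.3% of all genes were called higher and 15.2% lower (7.67% and 7.34% of those with at least 50 counts). Aerocytes, with the highest level, had 988 CPM and 1098 CPM (1.11, 1.03 to 1.20), and arterial cells 103 CPM and 136 CPM (1.32, 0.752 to 2.38). An overlapping gene in the table, Gm16897, held 53 and 64 counts in endothelial cells against 2978 and 3177 for Cd34.

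**Figure D2:**
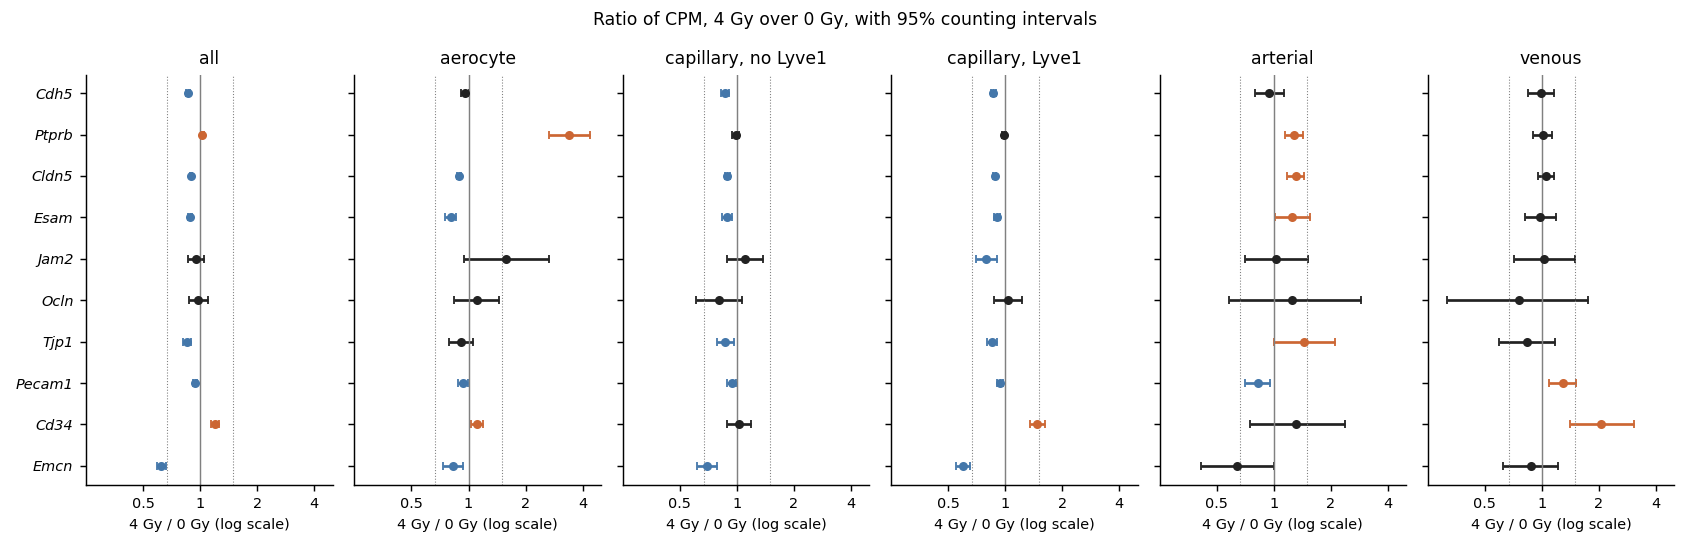
Ratio of CPM at 4 Gy over 0 Gy (horizontal axis, log scale) for each of the 10 genes in all endothelial cells and in the 5 classes; bars are exact 95% counting intervals, blue or orange where the interval lies below or above 1, and dotted lines mark 1.5-fold. Emcn lies left of 1 in each panel, Ptprb in aerocytes stands at 3.40, and the intervals of arterial and venous cells are the widest.

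Of the 10 genes, 5 had promoters in the RefSeq table (GRCm38.p6): Cldn5, Ocln with 2 start sites, Tjp1, Cd34 and Emcn. The 250 bases before the start are printed for the sialomucins, whose levels lay apart in opposite directions, and for Cldn5, whose ratio lay on different sides of 1 in different classes. Each is on the plus strand and reads 5′ to 3′; capitals mark the letters GGAA, the core that ETS factors bind, or TTCC, the same core on the opposite strand. The Emcn stretch is chr3:137340828-137341077, that of Cd34 is chr1:194938571-194938820 and that of Cldn5 is chr16:18776597-18776846. The first 2 end within the gene as GENCODE draws it.
Emcn: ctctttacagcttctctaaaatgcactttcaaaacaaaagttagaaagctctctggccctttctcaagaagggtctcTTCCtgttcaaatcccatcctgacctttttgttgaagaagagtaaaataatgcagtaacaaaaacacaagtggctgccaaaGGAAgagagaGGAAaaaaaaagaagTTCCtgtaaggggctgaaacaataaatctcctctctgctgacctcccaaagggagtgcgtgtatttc
Cd34: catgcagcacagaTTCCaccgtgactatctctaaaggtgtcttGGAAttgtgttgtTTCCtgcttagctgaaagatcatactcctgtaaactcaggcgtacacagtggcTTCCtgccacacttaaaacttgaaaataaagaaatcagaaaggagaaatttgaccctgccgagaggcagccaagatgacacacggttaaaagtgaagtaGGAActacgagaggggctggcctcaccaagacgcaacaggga
Cldn5: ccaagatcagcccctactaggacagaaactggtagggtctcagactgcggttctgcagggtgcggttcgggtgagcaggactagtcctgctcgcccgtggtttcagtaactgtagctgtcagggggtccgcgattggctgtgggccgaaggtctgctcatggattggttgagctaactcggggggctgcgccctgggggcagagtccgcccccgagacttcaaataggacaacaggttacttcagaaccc

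The core was found 4 times in the Emcn stretch, 5 times in that of Cd34 and 0 times in that of Cldn5. It is common: 93.4% of the 32851 promoter stretches of this length in the table hold it on either strand. The longer form AGGAAG, or CTTCCT on the opposite strand and overlapping the core, was found 2 times for Emcn, 1 time for Cd34 and 0 times for Cldn5, and in 29.5% of all stretches. A p53 half-site was found 1 time for Cldn5 and 0 times for Emcn and Cd34, and in 7.13% of all stretches. GC content was 40.8% for Emcn, 46.4% for Cd34 and 59.6% for Cldn5. These matches are letters in a window and no binding was measured.

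Since Lyve1 itself differed between the libraries, the capillary cells were thinned to 1000 UMIs and divided by their Lyve1 UMIs. Cells with 0 Lyve1 UMIs made up 61.0% of the thinned capillary cells at 0 Gy and 32.4% at 4 Gy; those with 4 or more made up 4.02% and 21.4%. Emcn was lower at 4 Gy in each of the 4 bins: 327 CPM at 0 Gy and 229 CPM at 4 Gy with 0 Lyve1 UMIs, 277 and 210 CPM with 1, 243 and 152 CPM with 2 to 3, and 293 and 142 CPM with 4 or more. The ratios were 0.702 (0.604 to 0.814), 0.758 (0.610 to 0.939), 0.624 (0.484 to 0.804) and 0.484 (0.339 to 0.701). A lower Emcn level was thus seen among cells with the same Lyve1 UMIs.

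Cd34 had another pattern across the same bins. With 0 Lyve1 UMIs it was at 183 CPM at 0 Gy and 193 CPM at 4 Gy (1.06, 0.888 to 1.25), and with 1 at 167 and 205 CPM (1.23, 0.965 to 1.57). With 2 to 3 it was at 110 CPM and 240 CPM (2.18, 1.63 to 2.95), and with 4 or more at 140 CPM and 264 CPM (1.88, 1.21 to 3.05). At 0 Gy the Cd34 level was therefore highest in the cells without Lyve1 and at 4 Gy in those with the most, with intervals that overlapped those of the neighbouring bin. Cdh5 gave ratios of 0.841 to 0.869 in the 4 bins and Cldn5 of 0.843 to 0.916. Cdkn1a, a p53 target that stops the cell cycle, had ratios of 4.59 to 6.59 in these bins; its part in the levels of Emcn or Cd34 was not tested.

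**Figure D3:**
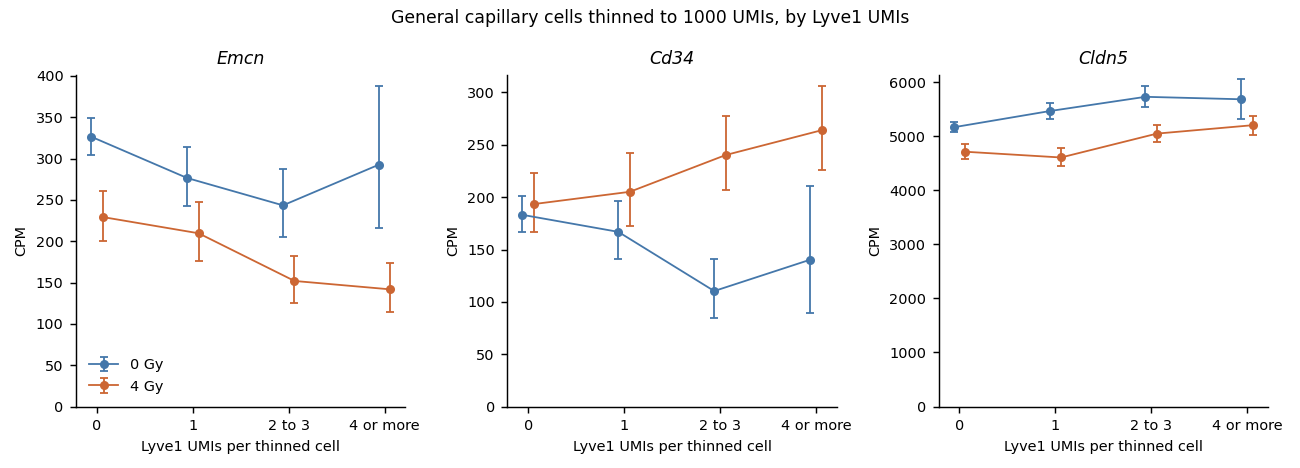
CPM of Emcn, Cd34 and Cldn5 (vertical axes, each from 0) in general capillary cells thinned to 1000 UMIs, by Lyve1 UMIs in the thinned cell, at 0 Gy (blue) and 4 Gy (orange); bars are exact 95% Poisson intervals. Emcn at 4 Gy lies below 0 Gy in each bin, and Cd34 separates between the doses from 2 Lyve1 UMIs on.

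The same gated endothelial cells were also divided without the class gates, into 9 clusters computed without the 10 genes. The clusters were named by the same marker lists, so they are not independent of the classes. Emcn was lower at 4 Gy in 9 of 9 clusters, with ratios of 0.308 to 0.856 and intervals below 1 in 7. Cldn5 was lower in 7 of 9 (0.594 to 1.18), Cdh5 in 8 of 9 (0.541 to 1.02), and Esam and Tjp1 in 7 of 9 each. Cd34 was below 1 in 2 of 9 clusters and had an interval above 1 in 3. Ptprb had an interval above 1 in 6 of 9 clusters and below 1 in 0, although its ratio over all endothelial cells was 1.03. Those ratios ran from 1.08 to 1.23, apart from 3.41 in the aerocyte cluster. A cluster led by Cdkn1a, Gdf15 and Ccng1, known p53 targets, held 65 cells at 0 Gy and 2096 at 4 Gy, so most irradiated capillary cells have few unirradiated partners there. The lowest Cdh5, Cldn5 and Pecam1 ratios came from an unnamed cluster of shallow cells (median 943 UMIs; 125 and 70 cells).

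**Figure D4:**
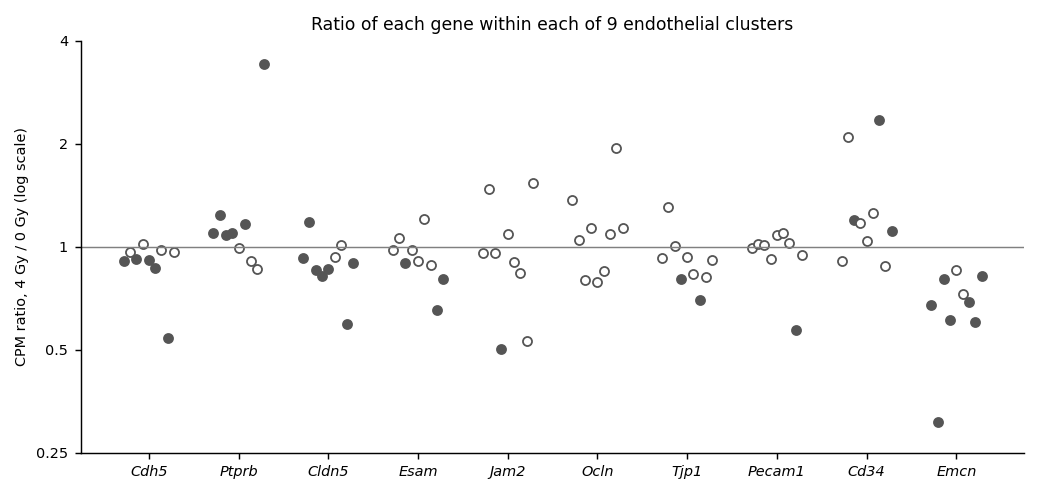
Ratio of CPM at 4 Gy over 0 Gy (vertical axis, log scale) of each gene within each of 9 endothelial clusters, in the same cluster order from left to right for each gene; filled points have a 95% counting interval that leaves out 1. All 9 Emcn points lie below 1, and the highest Ptprb point, at 3.41, is the aerocyte cluster.

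In the capillary cells, the bulk of the endothelium, 5 of the other genes were lower at 4 Gy by less than 1.5-fold in the gated sets with and without Lyve1. Cdh5 was at 1970 CPM at 0 Gy and 1702 CPM at 4 Gy in cells without Lyve1 (0.864, 0.824 to 0.906) and at 1828 and 1578 CPM in cells with it (0.863, 0.838 to 0.889). Cldn5 was at 5025 and 4471 CPM without Lyve1 (0.890, 0.864 to 0.916) and at 5300 and 4673 CPM with it (0.882, 0.867 to 0.897). Esam (0.887 and 0.903), Tjp1 (0.867 and 0.853) and Pecam1 (0.941 in both) were likewise lower in either set, with intervals below 1. In a finer clustering, clusters named as without Lyve1 gave 1.04 for Pecam1 and 0.974 for Tjp1. A Lyve1 UMI was still held by 24.9% to 46.2% of cells in those clusters, so they are not the gated set. Ptprb was level in both gated sets, at 2258 and 2226 CPM without Lyve1 (0.986, 0.945 to 1.03) and at 2287 and 2251 CPM with it (0.984, 0.960 to 1.01). Jam2 was at 95.2 and 75.7 CPM with Lyve1 (0.795, 0.697 to 0.907) and at 81.4 and 89.8 CPM without (1.10, 0.885 to 1.37). The difference between these Jam2 ratios was not tested. The intervals of Ocln held 1 in both sets (0.809, 0.606 to 1.07, without Lyve1 and 1.04, 0.876 to 1.23, with it).

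Shares of thinned cells with a UMI gave the same order for Emcn and Cd34 in capillary cells with Lyve1, but not for each gene and class. For Cd34 in capillary cells without Lyve1 the share was 15.3% (13.7 to 17.0) at 0 Gy and 13.6% (11.1 to 16.5) at 4 Gy, beside 183 and 188 CPM. In capillary cells with Lyve1 an Emcn UMI was seen in 21.7% (20.02 to 23.5) of 2171 cells at 0 Gy and in 15.2% (13.8 to 16.7) of 2452 at 4 Gy; unthinned it was 36.9% and 28.1%. A Cd34 UMI was seen in 13.3% (11.9 to 14.8) and 18.4% (16.8 to 19.9) of the same cells, and in 22.9% and 32.2% unthinned. Thinning left out 81 and 52 shallower cells. The lower Emcn and higher Cd34 levels in capillary cells with Lyve1 were thus seen as fewer and more cells with a UMI. Among thinned epithelial cells the shares were 0.645% and 0% for Emcn and 0.645% and 1.02% for Cd34.

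Among aerocytes 2 of 10 genes were called higher and 0 lower, beside 13.6% and 8.34% of all genes and 6.85% and 3.13% of those with at least 50 counts. Ptprb was at 62.6 CPM at 0 Gy and 213 CPM at 4 Gy (3.40, 2.67 to 4.38), beside 98.0 and 130 CPM in epithelial cells, and Jam2 at 19.9 CPM and 31.4 CPM (1.57, 0.942 to 2.65) from 29 and 37 counts. The Ptprb counts sat in few cells, since 11.01% of aerocytes at 0 Gy and 17.6% at 4 Gy held a Ptprb UMI. Aerocytes with at most 5 UMIs of the general capillary list (390 of 436 and 255 of 302) had Ptprb at 23.8 CPM at 0 Gy and 23.4 CPM at 4 Gy, a ratio of 0.982 (0.534 to 1.77). The remaining 46 and 47 aerocytes held 315 CPM and 823 CPM. Some genes of the capillary list, whose summed UMIs made this split, were also higher at 4 Gy in these cells. Plvap was at 295 CPM and 601 CPM and Cd93 at 202 CPM and 544 CPM, while Gpihbp1 was at 703 CPM and 644 CPM. These cells were deeper as well, with medians of 3992 and 5653 UMIs against 3205 and 3360 in the others. Among cells with few capillary UMIs the ratio rested on 30 and 21 Ptprb counts. Its interval ran past the size of a call. The cap of 5 UMIs was chosen after seeing the data and takes out cells with more capillary RNA, which includes Ptprb. The split therefore cannot decide whether Ptprb was higher in aerocytes apart from such RNA. Whether the cells above the cap are mixed droplets or cells between classes was not tested.

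**Figure D5:**
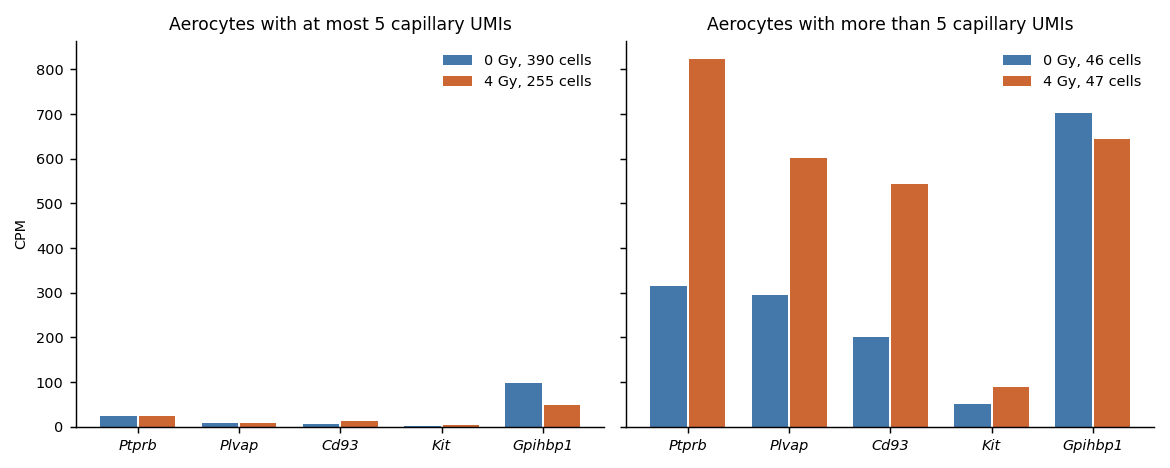
CPM (vertical axis, from 0) of Ptprb and 4 general capillary genes at 0 Gy (blue) and 4 Gy (orange) in aerocytes with at most 5 or with more than 5 UMIs of the general capillary list; each bar is a sum over the cells of 1 library. Ptprb is level at 23.8 and 23.4 CPM on the left and stands at 315 and 823 CPM on the right.

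The other genes of the aerocytes differed less. Cldn5 was at 7554 CPM at 0 Gy and 6724 CPM at 4 Gy (0.890, 0.865 to 0.916), Esam at 1595 CPM and 1282 CPM (0.804, 0.753 to 0.858), and Cdh5 at 2359 CPM and 2259 CPM (0.957, 0.910 to 1.01). Haemoglobin RNA, which comes from red cells, was at 115 CPM at 0 Gy and 3404 CPM at 4 Gy in aerocytes, and its part in these ratios was not tested. Cldn5 and Esam were lower by more than counting error, and the interval of Cdh5 held 1.

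Arterial cells went the other way for several genes. Ptprb was at 2377 CPM at 0 Gy and 3043 CPM at 4 Gy (1.28, 1.14 to 1.44), Cldn5 at 3069 CPM and 4009 CPM (1.31, 1.18 to 1.44), Esam at 697 CPM and 874 CPM (1.25, 1.01 to 1.55) and Tjp1 at 232 CPM and 337 CPM (1.45, 1.01 to 2.11). Pecam1 was at 1524 CPM and 1255 CPM (0.823, 0.704 to 0.963). None of these 5 reached 1.5-fold; the call in this class was Emcn alone, 1 of 10 lower, beside 16.2% of all genes lower and 22.3% higher (7.14% and 10.5% of those with at least 50 counts). With the stricter gate, which asks the arterial list to lead each other list by 2 UMIs, Cldn5 gave 0.999 and Emcn 0.264; in the artery-like cluster of a finer clustering Pecam1 gave 1.09 and Emcn 0.254. The direction of Cldn5 and Pecam1 and the size of the Emcn ratio in arterial cells therefore rest on how the cells are chosen. Haemoglobin was at 14167 CPM at 0 Gy and 47.6 CPM at 4 Gy in these cells, and marker lists of other cell types were higher at 4 Gy: the mesothelial list was at 0 and 126 CPM, the epithelial at 150 and 265, the fibroblast at 98.2 and 119, and the pericyte and smooth muscle list at 20.7 and 74.8 CPM. Single markers rested on few counts and moved in both directions, with 1 and 23 for Dcn, 2 and 27 for Ager, 0 and 19 for Acta2, and 19 and 8 for Sftpc. The part of these cells in the arterial ratios was not tested. Genes of the venous list also reached 4138 and 3275 CPM in the arterial cells, against 5962 and 5900 CPM for the arterial list. The general capillary list, which arterial cells did not have to exceed, was at 4355 and 5257 CPM in them.

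In venous cells most of the genes were level: Cdh5 was at 1089 CPM at 0 Gy and 1077 CPM at 4 Gy (0.989, 0.844 to 1.16), Ptprb at 2028 CPM and 2044 CPM (1.01, 0.898 to 1.13), and Cldn5 at 2759 CPM and 2883 CPM (1.05, 0.948 to 1.15). The share of thinned venous cells with a Cldn5 UMI was nonetheless lower at 4 Gy, at 90.3% (82.4 to 95.5) and 74.4% (63.2 to 83.6). Unthinned it was 96.9% and 85.9%. Pecam1 was higher, at 952 CPM and 1222 CPM (1.28, 1.10 to 1.51). With the stricter gate Pecam1 gave 1.003 and Cldn5 turned to 0.819, and Cldn5 gave 0.847 after thinning, so both rest on how the cells are chosen. Haemoglobin was at 15667 CPM at 0 Gy and 44.9 CPM at 4 Gy here, and its part was not tested. The general capillary list, which venous cells did not have to exceed, was at 7301 and 6777 CPM in them. The venous list was at 7073 and 8541 CPM. The venous interval of Cdh5 held the capillary ratios, while those of Cldn5 and Pecam1 lay above them with the main gate; differences between classes were not tested.

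Other junction genes, taken from lists of the same pathways, were read beside the 10. Of 16 adherens junction genes measured in all endothelial cells, 3 were called higher and 0 lower, beside 11.9% and 7.36% of all genes: Plekha7, a partner of p120 catenin, from 5 and 19 counts (4.26, 1.54 to 14.6), Nectin1, an adhesion protein (1.81, 1.36 to 2.42), and Cdh13, T-cadherin (1.55, 1.05 to 2.30). The catenins of these junctions differed little. Ctnna1 had a ratio of 1.08 (1.04 to 1.13) and Ctnnb1 of 1.14 (0.987 to 1.33). The ratio of Ctnnd1 was 1.04 (0.987 to 1.10) and that of Jup 1.06 (1.02 to 1.10). Of 16 tight junction genes measured of 20, 2 were called higher and 0 lower, a share near that of all genes (11.9% and 7.36%); Cldn3, a claudin also made by epithelium, was at 2.73 CPM and 12.5 CPM (4.59, 3.04 to 7.15). The epithelial marker list was at 84.4 CPM at 0 Gy and 151 CPM at 4 Gy in the same cells, with Epcam at 0.942 and 5.90 CPM; its part in the Cldn3 level was not tested. The other call, Cgn, rested on 5 and 13 counts with an interval that held 1 (2.91, 0.974 to 10.4), and is named here because the count is small.

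Among the contact proteins 2 of 7 were called higher and 0 lower, beside 11.9% and 7.36% of all genes. Vcam1, a leukocyte ligand, was at 18.1 CPM at 0 Gy and 44.1 CPM at 4 Gy (2.44, 2.05 to 2.91) over all endothelial cells. Most of its counts at 4 Gy lay in the few venous cells, with 86 of 192 counts at 0 Gy and 286 of 418 at 4 Gy (3.43, 2.68 to 4.41). In arterial cells the Vcam1 ratio was 1.17 (0.789 to 1.76), and in capillary cells with Lyve1 it rested on 30 and 25 counts (0.647, 0.365 to 1.14). Vcam1 is itself a defining gene of the venous gate, which draws cells with Vcam1 into that class and away from the others. The Vcam1 ratios by class are therefore shaped by the gate. Icam1, the ligand of leukocyte integrins, was at 35.0 and 63.7 CPM (1.82, 1.60 to 2.07). Icam2, which endothelium carries at rest, lay on the other side, at 1507 and 1092 CPM (0.725, 0.707 to 0.743), short of the call. Of 9 sialomucin and glycocalyx genes 2 were called higher and 0 lower, beside the same 11.9% and 7.36%. They were Prom1 (2.87, 1.58 to 5.48) and Sdc2 (2.10, 0.836 to 5.72), both with few counts; Sdc2, whose interval held 1, and Podxl were named after their values were seen. Podxl, the sialomucin nearest to Cd34 in kind, had a ratio of 0.804 (0.775 to 0.835). The sialomucins therefore did not share a direction.

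Gap junction genes gave 0 of 5 called higher and 1 lower, beside 11.9% and 7.36% of all genes. Gja4, connexin 37, was at 339 CPM at 0 Gy and 167 CPM at 4 Gy (0.493, 0.464 to 0.523), the lowest ratio among the genes named by the rule. Of 29 measured junction regulators 1 was called higher and 0 lower, both below those shares: Rhob, a small GTPase, was at 214 and 335 CPM (1.56, 1.48 to 1.65). Tek, the receptor Tie2 that Ptprb acts on, was at 517 and 437 CPM (0.846, 0.812 to 0.881). Of 17 transcription factors 0 were called higher and 1 lower, both below those shares; Ets1, an ETS factor, was at 487 and 308 CPM (0.633, 0.605 to 0.663). The ETS factors Erg (1.12, 1.01 to 1.23) and Fli1 (0.841, 0.784 to 0.901) differed less. The lists' median log2 ratios ran from -0.09 for the transcription factors to 0.20 for the tight junction genes, beside 0.05 over all genes.

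Genes with the most similar pattern were sought over 10 points, the 5 classes in each of 2 libraries, among 7190 genes with a mean of at least 20 CPM. Cldn5 and Esam were each among the 2 genes most like the other, with a Pearson correlation of log2(CPM + 5) of 0.977; Dpysl2 was nearest to Cldn5 (0.988) and Cav2, a caveolin, to Esam (0.984). Ptprb was nearest to Itga6 (0.994) and Pde3a (0.994), and Jam2 to Gm8292 (0.991) and Vwf (0.990), the von Willebrand factor of larger vessels. Cdh5 was nearest to Atp6v1g1 and Mcc (both 0.987), and Cd34 to Zfhx3 and Dock4 (both 0.982). Less close were the nearest genes of Pecam1 (Klhl2, 0.954, and Mrpl46, 0.947), Ocln (Dusp16, 0.9504, and Elmo1, 0.942), Emcn (Eef1akmt1, 0.948, and Pdcd10, 0.930) and Tjp1 (Syne1, 0.945, and Tspan14, 0.930). Points of 1 library share its depth and preparation, and aerocytes stand apart in most genes, so these values describe the order of the classes.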

How the data were processed

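The authors deposited log2(CPM + 1) values per cell and gene for 4 libraries, 1 per dose and CD45 sort. Per the labels' protocols these are 10x Genomics 3′ libraries; the submitters' processing notes list mm10, STAR, Partek and Seurat but not what each did, and cell filters are not stated. The log2 values were turned back into whole UMI counts (99.9993% to 99.9996% whole within 0.02; 12448164 to 36423571 UMIs per library). Scrublet doublets were removed (286 and 235 cells at 0 Gy, 149 and 608 at 4 Gy), at the expected rate where its own threshold marked too few. Counts were summed per class and library. Ratios have exact conditional binomial intervals, levels exact Poisson and shares exact binomial intervals, all 95%. A call is at least 1.5-fold with at least 10 counts over both libraries. Endothelial cells needed at least 10 UMIs of their list, and more than of any list of non-endothelial cells. Aerocytes needed at least 10 UMIs of their list, and more than of the capillary list. Arterial and venous cells needed 2 UMIs from at least 2 defining genes, and more of these than of the other vessel's. They did not have to lead the capillary list. Of the remaining cells, capillary cells needed 5 UMIs of their list, which had to lead the other endothelial lists. These thresholds and the defining vessel genes were set after seeing the data. Members and lists were chosen with earlier results of these data known. Genes named by rule are the 10 members, list genes past 1.5-fold in all endothelial cells with an interval outside 1 (at most 8 per direction) and the 2 genes most like each member. Others were named outside this rule. Among them are the catenins, Icam2, Tek, Erg, Fli1, Podxl, Sdc2 and Cgn from the lists, and marker genes beside a gate or check. Leiden clusters used scanpy 1.11.5, 2000 variable genes without the members, 30 components and 15 neighbours. They were computed on the gated endothelial cells and named by the marker lists. Capillary clusters were named as with or without Lyve1 by whether most of their cells held a Lyve1 UMI. The ratio intervals were checked on simulated counts with Poisson error only. Such counts hold no spread between cells or mice, so the check does not speak to that spread in these data.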

Additional observations from a re-analysis of the deposited data

Results flagged for a closer look

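The following genes had an interval above 1 in 1 endothelial class and below 1 in another; with 1 library per dose the differences between classes were not tested. The Cldn5 ratio, 4 Gy over 0 Gy, was 1.31 (1.18 to 1.44) in arterial cells and 0.882 (0.867 to 0.897) in capillary cells with Lyve1. For Esam it was 1.25 (1.01 to 1.55) in arterial cells and 0.804 (0.753 to 0.858) in aerocytes. Tjp1 gave 1.45 (1.01 to 2.11) in arterial cells and 0.853 (0.79997 to 0.910) in capillary cells with Lyve1. Pecam1 gave 1.28 (1.10 to 1.51) in venous cells and 0.823 (0.704 to 0.963) in arterial cells.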

How the results depend on the processing

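No paired analysis was possible because each dose has 1 CD45-negative library; for the same reason no library could be left out. The count of the 10 genes past 1.5-fold stayed at 1 in all endothelial cells under the 8 alternatives run there and at 1 in venous cells under the 9 run there. In aerocytes it went from 2 to 1 after thinning to 1000 UMIs, with ratios of CPM + 5, and in aerocytes with at most 5 capillary UMIs (an alternative chosen after seeing the data), where the Ptprb ratio was 0.982. In capillary cells without Lyve1 it went from 0 to 1 after thinning, with Emcn at 0.655. With clusters low in Lyve1, in which 24.9% to 46.2% of cells held it, the count stayed at 0, with Emcn at 0.821 and Pecam1 at 1.04. In capillary cells with Lyve1 it went from 1 to 2 with the mean over cells and with clusters, as Cd34 passed 1.5-fold (1.51 and 1.52), and to 3 after thinning (Emcn, Cd34 and Jam2). In arterial cells it went from 1 to 3 after thinning (Emcn, Pecam1 and Ocln) and to 2 with the stricter gate (Emcn and Tjp1) and with clusters (Emcn and Cd34); there Emcn ran from 0.254 to 0.651 and Cd34 from 0.704 to 2.03. Venous Cd34 ran from 1.67 to 3.33. The cause of these moves was not tested. Emcn over all endothelial cells ran from 0.602 to 0.644 and Cd34 from 1.15 to 1.23. Ptprb over the same cells ran from 0.990 to 1.03, on either side of 1. Arterial Emcn moved by up to 1.64-fold after thinning, 2.44-fold with the stricter gate and 2.53-fold with clusters. Few counts widen the intervals of Jam2 and Ocln and of the arterial and venous cells. Library and dose cannot be told apart.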
